A study of Mus musculus with 20 samples.

Results

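The 10 core circadian clock genes *Arntl*, *Clock*, *Per1*, *Per2*, *Per3*, *Cry1*, *Cry2*, *Nr1d1*, *Nr1d2* and *Dbp* were followed in RNA sequencing libraries of colonic intestinal epithelial cells (IECs). They were taken by name from a table of 15876 genes. All 10 had a row and passed a minimum mean count of 4, as did every other gene. The libraries came from 10 mice exposed to a social disruption stressor (Str) and 10 home cage control mice (Con), all adult male C57BL/6NCrl mice of 6 to 8 weeks, conventionally raised, with no genetic change named in the labels. Str mice had a retired breeder male of their own strain placed among 3 cage mates for 2 h/d over 6 d, whereas Con mice stayed in their home cages. IECs were taken as cells that carry EpCAM and lack CD45. The stressor was applied in the late afternoon, and lights came on at 6 in the morning of a 12 h light cycle. Cells of Str mice were collected 12 to 15 h after the last exposure, and no collection time is given for Con mice. The methods place the exposure at the close of the dark phase, which does not match a late afternoon under that light cycle, and the interval to collection is not worded alike throughout, so the phase of the daily rhythm that was sampled is uncertain. The clock time at which each mouse was sampled is not given in the sources used here, so each library is a single time point of a daily rhythm. A difference in sampling time between Str and Con could not be told apart from the stressor.

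The circadian clock of mammalian cells is a transcriptional feedback loop. ARNTL (also called BMAL1) and CLOCK bind E-box sequences as a pair and switch on the *Per* and *Cry* genes, whose proteins return to the nucleus and repress that pair. A further loop runs through *Nr1d1* and *Nr1d2*, which encode the heme-binding receptors REV-ERBα and REV-ERBβ and repress *Arntl*, *Clock* and *Cry1* at sites that the ROR receptors activate. DBP is a transcription factor made under direct control of ARNTL and CLOCK, and acts on D-box sequences. In the intestinal epithelium this clock is known for daily rhythms in nutrient uptake, cell division and responses to bacteria, and glucocorticoids and feeding time are among the signals that set it in peripheral tissues. *Arntl* and *Cry1* peak at nearly opposite times of day to *Nr1d1*, *Nr1d2* and *Dbp* in most mouse tissues.

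Counts summed to between 20390091 and 24508215 per Str library (median 22680672) and between 20034127 and 26141352 per Con library (median 23676345.5). The 7 epithelial markers checked (*Epcam*, *Cdh1*, *Krt8*, *Krt19*, *Krt20*, *Vil1*, *Cdx2*) summed to between 12696 and 16785 CPM (counts scaled to a common library total) in Str and between 13224 and 15964 CPM in Con. Of these 7, *Krt20* was higher in Str (log2 fold change 0.33, edgeR adjusted p = 0.0074) and the others did not pass the test. Among 4 markers of absorptive colonocytes, *Krt20* included, 2 were higher and 1 was lower in Str. The 4 leukocyte markers with a row summed to between 36.1 and 130 CPM in Str and between 22.5 and 43.9 CPM in Con, and *Ly6g* and *Cd68*, markers of neutrophils and of macrophages, were the 2 of the 4 that were higher in Str. *Ptprc*, which encodes CD45, had a log2 fold change of -0.37 (edgeR adjusted p = 0.36) and *Itgam* of -0.16 (adjusted p = 0.56), and neither passed the test. *Alb*, the liver transcript for serum albumin, was at 69.3 to 79.9 CPM in 4 Con libraries (CV3, CV4, CV6, CL1) and at 1.64 to 3.19 CPM in the other 16, so calls that change without these 4 are given. Library names hold S or C for the group, then V or L, whose meaning is not given in the sources used here, and Str and Con each had 5 libraries of either letter. The libraries are bulk RNA, so that fewer cells of a type and less RNA per cell cannot be told apart. Cages are not given, and the p-values treat the mice as independent.

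Among the 10 genes *Cry2* fell by 32.2% in Str relative to Con (95% interval of the fold 0.548 to 0.838), and none of the others passed the test. This was tested in edgeR's quasi-likelihood test with p-values adjusted over all genes, a gene being called at an adjusted p under 0.05. Across the table, 16.7% of genes were called in either direction, 8.94% as higher and 7.72% as lower in Str. Of the core genes 1 of 10 was called lower and 0 of 10 higher. At an unadjusted p under 0.05 there were 4 of 10, *Clock* with a higher level in Str and *Arntl*, *Per3* and *Cry2* with lower ones, against 4813 of 15876 genes in the table. DESeq2 and limma-voom on the same counts called *Cry2* lower and *Clock* higher. The median log2 fold change of the 10 genes was -0.14, against -0.004 over all genes, and their median absolute log2 fold change was 0.24, against 0.11 over all genes. In the main edgeR fit the share of the core genes called, 1 of 10, was no larger than the 16.7% of the table.

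**Figure D1:**
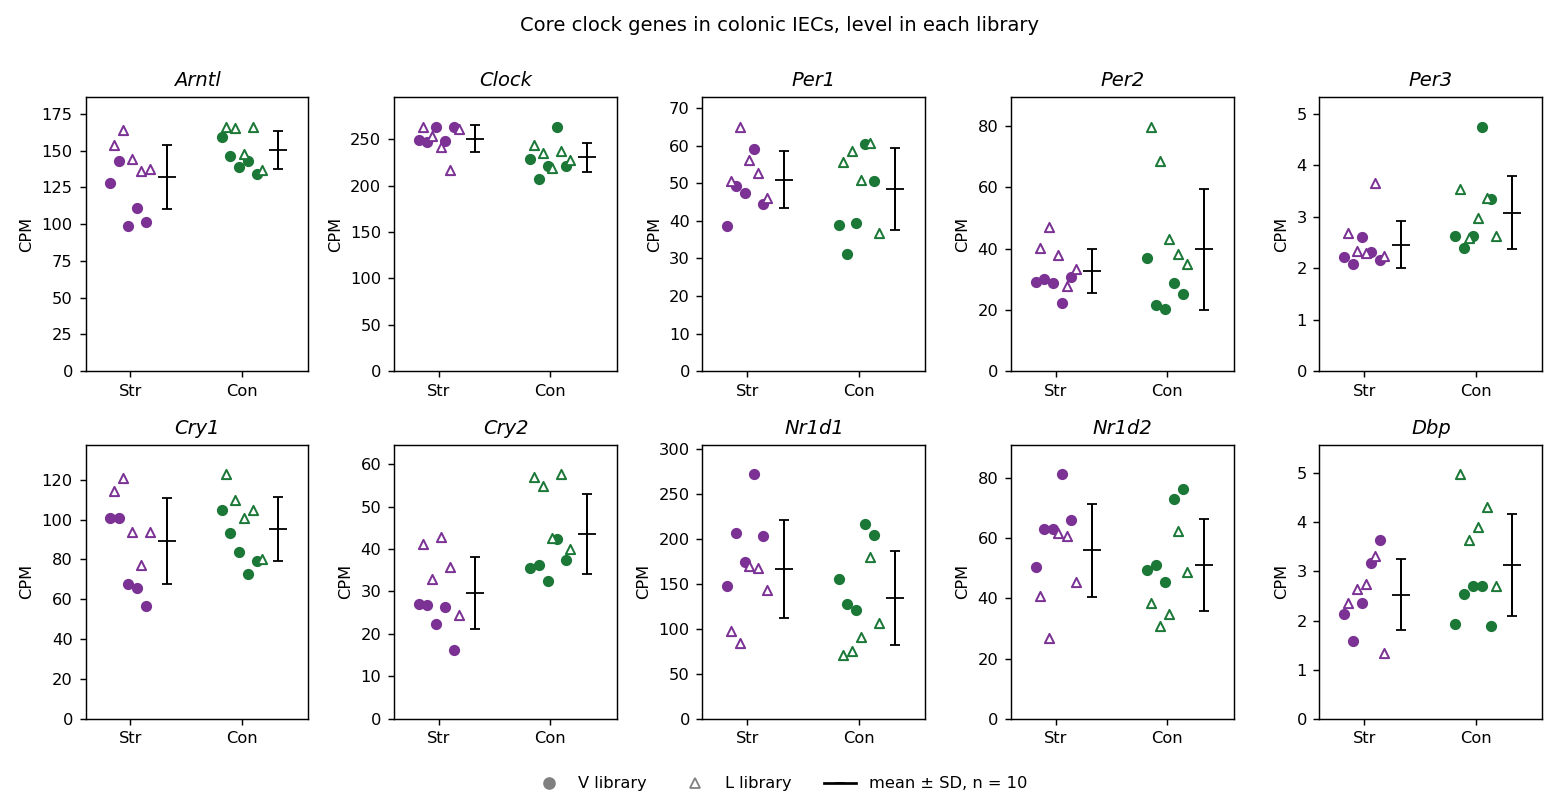
Level of each core clock gene in every library, in CPM on a linear axis that starts at 0, with Str to the left of Con. Circles are V libraries, triangles are L libraries and the bars are the mean ± SD of 10 libraries. *Cry2* lies between 16.2 and 42.9 CPM in Str and between 32.6 and 57.7 CPM in Con.

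Set per kilobase of exon, the 10 transcripts spanned a wide range of levels. *Nr1d1* was the most abundant at 61.3 ± 19.98 CPM per kb in Str and 49.5 ± 19.2 CPM per kb in Con (SD, n = 10 each). *Arntl*, *Cry1* and *Clock* came next, at 42.7, 29.5 and 25.3 CPM per kb in Str and 48.7, 31.5 and 23.2 CPM per kb in Con. *Nr1d2* was at 12.01 CPM per kb in Str and 10.97 in Con. Below it, *Per1* and *Cry2* changed places, with *Per1* at 9.07 and *Cry2* at 6.81 CPM per kb in Str, and *Per1* at 8.60 and *Cry2* at 10.05 CPM per kb in Con. *Per2* followed at 5.62 CPM per kb in Str and 6.82 in Con. *Dbp*, at 1.38 CPM per kb in Str and 1.71 in Con, and *Per3*, at 0.41 in Str and 0.51 in Con, were the least abundant. Neighbours in this order overlapped between libraries except for *Clock* above *Nr1d2*, *Per2* above *Dbp* and *Dbp* above *Per3* in both groups, and *Arntl* above *Cry1* in Con.

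The stretches of promoter below carry the clock motifs of the genes on which the results turn. *Cry2* is shown as the gene that fell, *Cry1* for its variation with *Arntl*, and *Nr1d1* and *Nr1d2* for their variation together. *Per1* and *Per3* are shown for the E-box and for a pair of D-boxes. Each stretch of 120 bases comes from the RefSeq promoters of GRCm38.p6, is written 5′ to 3′ on the strand of the gene, and has in capitals the motif it is shown for. The motifs searched were the E-box CACGTG, its variant CACGTT (read as AACGTG on the other strand), the core of the ROR element AGGTCA and the D-box TTATGTAA, each on both strands. The stretch of *Per1* also holds a ROR element core on the other strand, which begins 137 bases before the start of that promoter and is left in lower case. That promoter lies inside the gene, from 69098699 to 69098998, whereas the gene begins at 69095108.
Cry2, chr2:92434173-92434292, minus strand: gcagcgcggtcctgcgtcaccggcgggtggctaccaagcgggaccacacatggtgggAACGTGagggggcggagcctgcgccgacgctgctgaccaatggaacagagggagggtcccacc
Cry1, chr10:85185062-85185181, minus strand: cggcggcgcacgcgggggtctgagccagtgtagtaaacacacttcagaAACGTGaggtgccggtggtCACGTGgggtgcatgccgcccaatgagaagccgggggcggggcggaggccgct
Nr1d1, chr11:98775378-98775497, minus strand: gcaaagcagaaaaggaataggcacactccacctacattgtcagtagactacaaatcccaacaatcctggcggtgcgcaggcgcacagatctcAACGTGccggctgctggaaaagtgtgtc
Nr1d2, chr14:18239121-18239240, minus strand: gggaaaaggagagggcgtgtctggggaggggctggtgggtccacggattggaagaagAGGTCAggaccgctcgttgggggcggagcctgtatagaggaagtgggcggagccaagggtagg
Per1, chr11:69098726-69098845, plus strand: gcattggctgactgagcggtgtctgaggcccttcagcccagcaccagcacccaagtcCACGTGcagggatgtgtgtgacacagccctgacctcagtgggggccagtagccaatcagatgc
Per3, chr4:151044784-151044903, minus strand: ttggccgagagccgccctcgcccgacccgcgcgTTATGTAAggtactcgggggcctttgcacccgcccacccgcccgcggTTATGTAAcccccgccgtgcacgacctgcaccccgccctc

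RefSeq promoters of 300 bases, 250 before and 50 after the start, were matched for 9 of the 10 genes, with 13 promoters in all. *Per2* had no match, so its promoter was not searched. The percentages below are of promoters, whereas a gene was counted once however many promoters it had. The E-box stood in those of *Per1* and *Cry1*, against 7.15% of all 32851 promoters. The variant stood in those of *Cry1*, *Cry2* and *Nr1d1*, against 4.68%. The ROR core stood in those of *Arntl*, *Clock*, *Per1* and *Nr1d2*, against 16.3%, and the D-box only in that of *Per3*, with 2 copies, against 0.938%. In *Cry1* the E-box began 60 bases and the variant 79 bases before the start, and in *Cry2* the variant began 166 bases before it. A match describes these letters and no binding was measured.

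The activators had small differences between groups. *Arntl*, on chromosome 7 from 113178471 to 113314126, had its lowest Str level at 99.0 CPM, its median at 137 and its highest at 164 CPM, against 134, 147 and 166 CPM in Con. The groups overlapped, with 4 Str libraries below the lowest Con library, all 4 of them V libraries. Its mean was 132 ± 21.8 CPM in Str and 151 ± 12.8 CPM in Con (SD, n = 10 each), a log2 fold change of -0.19 (SE 0.08, 95% interval -0.36 to -0.03, edgeR adjusted p = 0.10). *Arntl* was called lower in the V libraries alone (-0.31, adjusted p = 0.045), with library sizes alone for scaling (-0.23, adjusted p = 0.037) and without Str library SL2 (-0.23, adjusted p = 0.044).

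*Clock*, on chromosome 5 from 76209868 to 76305603 and coding for the partner of ARNTL, had the smallest spread of the 10 genes, with a coefficient of variation of 5.71% in Str and 6.77% in Con. It ranged from 217 to 264 CPM in Str, with a median of 251, and from 207 to 263 CPM in Con, with a median of 228. The ranges overlapped almost fully, and 1 Str library was above the highest Con library. The log2 fold change was 0.12 (SE 0.04, 95% interval 0.03 to 0.21, edgeR adjusted p = 0.052), an 8.79% higher level in Str. The call turned with the tool, as *Clock* had an adjusted p = 0.025 in DESeq2 and 0.018 in limma-voom. It was also called when CV4, CL1, SL4 or SL5 was left out (log2 fold change 0.13 to 0.14, lowest adjusted p = 0.013 without SL5), and without the 4 libraries that held *Alb* (0.15, adjusted p = 0.043).

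The period genes encode the PER proteins, which bind the cryptochromes in the repressor complex. *Per1*, on chromosome 11 from 69095108 to 69109965, was at 51.0 ± 7.66 CPM in Str and 48.4 ± 10.9 CPM in Con (SD, n = 10 each). Its log2 fold change of 0.08 had a 95% interval of -0.16 to 0.31 (edgeR adjusted p = 0.71), and the ranges of 38.7 to 65.1 CPM in Str and 31.3 to 60.9 CPM in Con overlapped almost fully.

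*Per2*, on chromosome 1 from 91415977 to 91459351, ranged from 22.2 to 47.2 CPM in Str with a median of 30.5, and from 20.3 to 79.9 CPM in Con with a median of 36.0. The Con libraries CL1 and CL2, at 79.9 and 68.6 CPM, lay above every other library, and the coefficient of variation was 22.01% in Str and 49.8% in Con. Its log2 fold change was -0.28 (SE 0.21, 95% interval -0.72 to 0.16, edgeR adjusted p = 0.39). Its sign turned in the V libraries alone, where it was 0.08.

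*Per3*, on chromosome 4 from 150997018 to 151044707, was a low transcript, with 47 to 85 counts per Str library and 58 to 97 counts per Con library. It lay between 2.08 and 3.66 CPM in Str, with a median of 2.31, and between 2.38 and 4.75 CPM in Con, with a median of 2.81. In Str, 7 of 10 libraries were below the lowest Con library, while SL5 was above every Con library but CV4. The log2 fold change was -0.32 (SE 0.13, 95% interval -0.58 to -0.06, edgeR adjusted p = 0.087). Without SL5 it was -0.40 and was called (adjusted p = 0.018). Without the 4 libraries that held *Alb*, CV4 with the highest level among them, it was -0.16 (adjusted p = 0.46).

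The cryptochromes are strong repressors of ARNTL and CLOCK. *Cry2* was called here and *Cry1* was not, and the difference between the 2 genes was not tested. *Cry2*, on chromosome 2 from 92403646 to 92434085, had 16.2 CPM in its lowest Str library, a median of 26.9 and 42.9 CPM in its highest, against 32.6, 41.3 and 57.7 CPM in Con. Of the Str libraries 6 lay below every Con library, and 3 Con libraries lay above every Str library. The V libraries had 27.0, 26.9, 22.3, 26.3 and 16.2 CPM in Str, against 35.5, 36.2, 32.6, 42.4 and 37.3 CPM in Con, and did not overlap. The L libraries had 41.2, 32.9, 42.9, 35.8 and 24.5 CPM in Str, against 57.0, 54.9, 42.5, 57.7 and 40.1 CPM in Con, where 3 of 5 Str libraries lay below every Con library.

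The mean of *Cry2* was 29.6 ± 8.46 CPM in Str and 43.6 ± 9.45 CPM in Con (SD, n = 10 each). The log2 fold change was -0.56 (SE 0.15, 95% interval -0.87 to -0.25, edgeR adjusted p = 0.012). The call held in all 20 fits that left out 1 library, with log2 fold changes of -0.63 to -0.49, and without the 4 libraries that held *Alb* (-0.59, adjusted p = 0.039). It was lost in the L libraries alone (-0.51, adjusted p = 0.12). Of the leukocyte markers given above, *Ly6g* made up most of the sum, at 75.9 ± 28.6 CPM in Str and 28.9 ± 7.51 CPM in Con (SD, n = 10 each), while *Ptprc* was at 0.905 CPM in Str and 1.16 CPM in Con. Their part in the level of *Cry2* was not tested.

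*Cry1*, on chromosome 10 from 85131700 to 85185054, ranged from 56.8 to 121 CPM in Str, with a median of 93.7, and from 72.7 to 123 CPM in Con, with a median of 97.3. Its log2 fold change was -0.10 (SE 0.12, 95% interval -0.35 to 0.16, edgeR adjusted p = 0.65). The Str libraries SV4, SV5 and SV6, at 67.9, 65.5 and 56.8 CPM, were below every Con library. The same 3 libraries had the lowest *Arntl*, at 99.0, 111 and 102 CPM.

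The REV-ERB receptors, which bind heme and repress *Arntl*, varied widely between mice. The coefficient of variation of *Nr1d1* was 32.6% in Str and 38.9% in Con. *Nr1d1*, on chromosome 11 from 98767932 to 98775377, ranged from 84.5 to 272 CPM in Str, with a median of 169, and from 71.2 to 217 CPM in Con, with a median of 124. Its mean was 167 ± 54.4 CPM in Str and 135 ± 52.3 CPM in Con (SD, n = 10 each). The log2 fold change of 0.31 had a 95% interval of -0.13 to 0.75 (SE 0.21, edgeR adjusted p = 0.34), an interval that runs from slightly lower to 1.68-fold higher. *Nr1d2*, on chromosome 14 from 18204056 to 18239106, ranged from 26.8 to 81.4 CPM in Str and from 30.8 to 76.3 CPM in Con, with a log2 fold change of 0.13 (SE 0.17, 95% interval -0.23 to 0.49, edgeR adjusted p = 0.66). *Nr1d1* shares 263 exon bases, 9.67% of its exon length, with *Thra* on the opposite strand. *Thra*, which encodes a thyroid hormone receptor, was lower in Str (log2 fold change -0.22, edgeR adjusted p = 0.044). The libraries were directional, but the strand setting of the counting is not given in the sources used here.

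*Dbp*, on chromosome 7 from 45705100 to 45710203, was as low as *Per3*, with 30 to 79 counts per Str library and 47 to 106 counts per Con library. It lay between 1.34 and 3.64 CPM in Str, with a median of 2.50, and between 1.89 and 4.99 CPM in Con, with a median of 2.70. The log2 fold change was -0.30 (SE 0.19, 95% interval -0.70 to 0.09, edgeR adjusted p = 0.29). It had opposite signs in the 2 letters, -0.65 in L (adjusted p = 0.16) and 0.13 in V (adjusted p = 0.75). In the L libraries *Dbp* was at 2.35, 2.65, 2.74, 3.32 and 1.34 CPM in Str, against 4.99, 3.63, 3.91, 4.32 and 2.70 CPM in Con. Of its exon bases 539, or 29.3%, are shared with *Sphk2* on the opposite strand. *Sphk2*, which encodes a sphingosine kinase, fell in Str (log2 fold change -0.25, edgeR adjusted p = 0.013), so the level of *Dbp* is uncertain if the counting ignored strand.

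**Figure D2:**
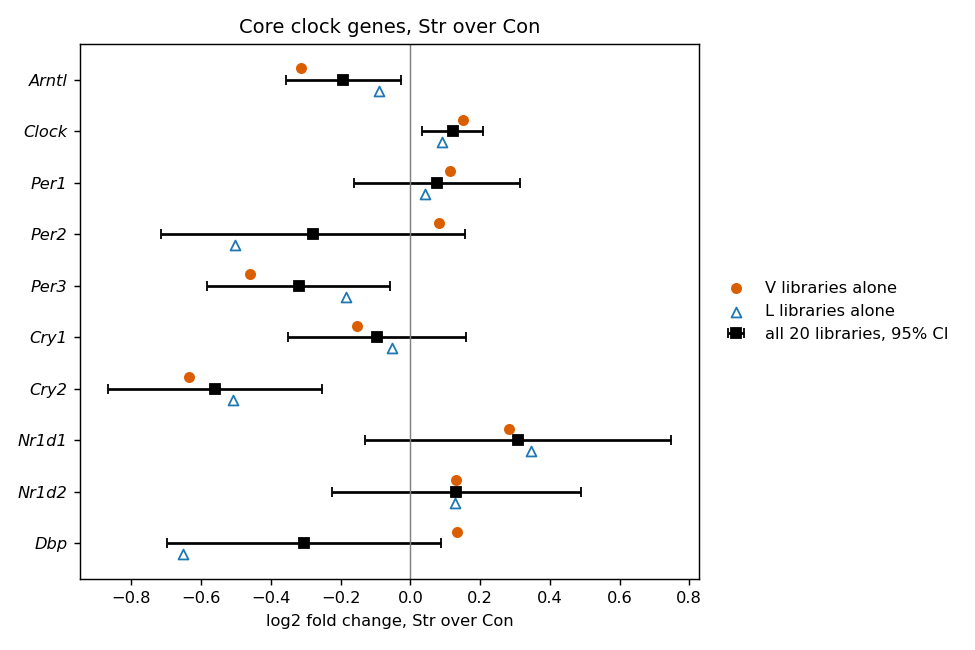
Log2 fold change of the core clock genes, Str over Con, with squares and 95% intervals for all 20 libraries, circles for the V libraries alone and triangles for the L libraries alone. The interval of *Cry2* runs from -0.87 to -0.25, and *Per2* and *Dbp* have opposite signs in the V and L libraries.

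The letter in the library names went with differences in several of these genes. With the group as a covariate, 4 of the 10 differed between L and V libraries in edgeR, whereas 4.89% of all genes did. *Cry2* (log2 fold change, L over V, 0.52, SE 0.10, adjusted p = 0.0092), *Per2* (0.70, SE 0.16, adjusted p = 0.017) and *Arntl* (0.23, SE 0.07, adjusted p = 0.047) were higher in L. *Nr1d1* was lower in L (-0.63, SE 0.17, adjusted p = 0.038), and *Nr1d2* did not pass (-0.46, adjusted p = 0.069). Without the 4 libraries that held *Alb*, 3 of them V, *Cry2* was still called (0.53, adjusted p = 0.0498), whereas *Per2* (0.49, adjusted p = 0.093), *Arntl* (0.22, adjusted p = 0.14) and *Nr1d1* (-0.50, adjusted p = 0.15) were not. Over all genes, 202 of 15875 were called in this smaller set of libraries, against 776 of 15876 with all libraries. *Per2* averaged 37.3 ± 7.28 CPM in L and 28.2 ± 3.44 CPM in V among Str libraries, and 53.0 ± 20.1 CPM in L and 26.6 ± 6.71 CPM in V among Con libraries (SD, n = 5 each). *Nr1d1* averaged 133 ± 39.6 CPM in L and 201 ± 46.6 CPM in V among Str libraries, and 104 ± 44.1 CPM in L and 165 ± 43.9 CPM in V among Con libraries (SD, n = 5 each).

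In the wider clock *Npas2*, a paralog of *Clock* (0.34, adjusted p = 0.022), was also higher in L. *Nfil3*, which encodes a repressor at D-boxes, was lower in L (-0.44, adjusted p = 0.0028). Without the libraries that held *Alb*, *Nfil3* (-0.40, adjusted p = 0.0498) was called and *Npas2* (0.36, adjusted p = 0.056) was not. The fibroblast and muscle markers *Pdgfra*, *Vim*, *Acta2* and *Des* were 4 of 6 that were higher in L (0.64, 0.53, 0.60 and 0.72). Without the libraries that held *Alb*, *Acta2* (0.68, adjusted p = 0.089) was not called and the other 3 were (adjusted p = 0.0498 each). Their part in these differences was not tested.

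With the letter as a covariate, 18.8% of all genes were called between Str and Con, and of the core genes *Cry2* (-0.57, adjusted p = 0.00069) and *Arntl* (-0.20, adjusted p = 0.035) were lower and *Clock* (0.12, adjusted p = 0.0499) higher. Within the V libraries 10.2% of all genes and 2 of the 10, *Arntl* and *Cry2*, were called. Within the L libraries 0.0693% of all genes, which is 11 genes, and 0 of the 10 were called in edgeR, with 2666 genes and 3 of the 10 at an unadjusted p under 0.05. The interaction of group and letter was called for 0% of genes and for 0 of the 10 in edgeR, with 918 genes and 1 of the 10 at an unadjusted p under 0.05. That gene was *Dbp* (difference L minus V of -0.79, SE 0.32, unadjusted p = 0.024, adjusted p = 0.86).

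Across mice of a group, several core genes varied together. *Nr1d1* and *Nr1d2* formed 1 such pair and *Arntl* and *Cry1* another. Pearson's r of log2 CPM, centred within group, was computed for all 45 pairs over 20 libraries, with 100000 permutations and Benjamini-Hochberg adjustment over the pairs. There were 14 pairs past an adjusted p of 0.05, 8 positive and 6 negative. The closest were *Nr1d1* with *Nr1d2* (r = 0.94, rho = 0.96) and *Arntl* with *Cry1* (r = 0.90, rho = 0.90), both with a permutation p = 1e-05 for r and for rho, the smallest that these permutations can give, and an adjusted p = 0.00023. The 2 libraries farthest from the median of 1 gene of the pair were also left out, so these libraries differ between pairs. Chosen by *Nr1d1*, the coefficient was 0.95 for *Nr1d1* with *Nr1d2*. Chosen by *Arntl*, it was 0.88 for *Arntl* with *Cry1*. In Str alone the 2 coefficients were 0.96 and 0.91, and in Con alone 0.94 and 0.89. Without the 4 libraries that held *Alb* they were 0.95 and 0.91, and 9 of the 14 pairs passed. Pairs of genes outside the core were not tested. Whether 14 of 45 is a larger share than among other genes is therefore not known.

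**Figure D3:**
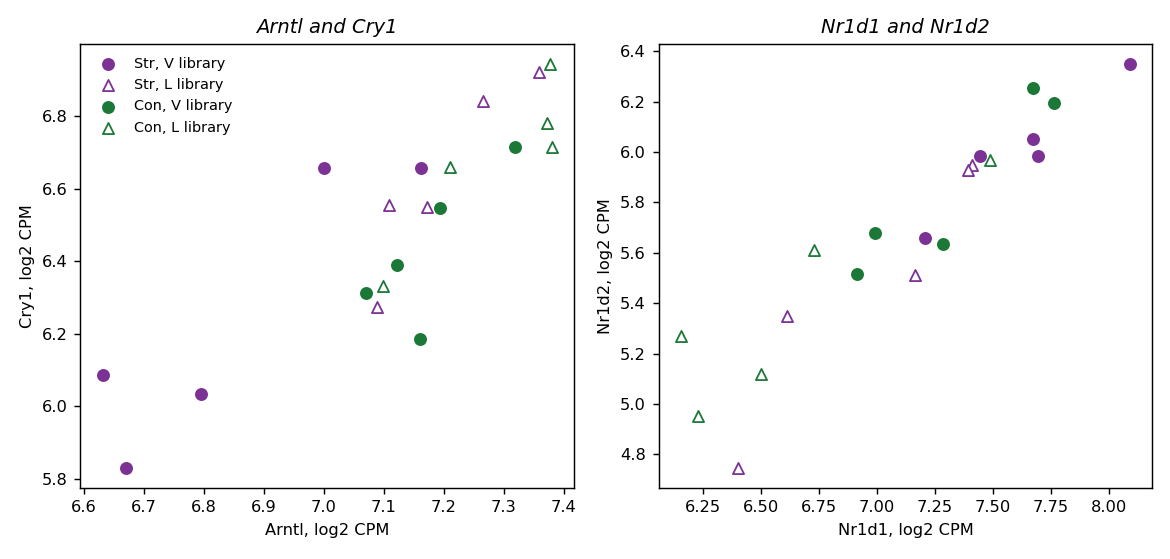
*Arntl* against *Cry1* (left) and *Nr1d1* against *Nr1d2* (right), in log2 CPM, 1 point per library, purple for Str and green for Con, circles for V and triangles for L libraries. Both pairs rise together in Str and in Con, with r = 0.90 for *Arntl* with *Cry1* and r = 0.94 for *Nr1d1* with *Nr1d2* after centring within group.

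*Cry2* went with *Arntl* (r = 0.75, rho = 0.76, permutation p = 0.0004 and 0.00034, adjusted p = 0.0035 and 0.0037), and *Cry1* went against *Nr1d2* (r = -0.72, rho = -0.69, permutation p = 0.00033 and 0.0012, adjusted p = 0.0035 and 0.0092). *Per2* went against *Nr1d1* (r = -0.70, rho = -0.64, permutation p = 0.00082 and 0.0047, adjusted p = 0.0052 and 0.021). Without the 2 libraries farthest from the median of *Arntl*, *Cry1* and *Per2*, in that order, these 3 coefficients were 0.65, -0.70 and -0.56. Within group and letter they were 0.56, -0.60 and -0.48 and no longer passed (adjusted p = 0.15, 0.085 and 0.25). Only *Nr1d1* with *Nr1d2* (r = 0.92, adjusted p = 0.00045) and *Arntl* with *Cry1* (r = 0.89, adjusted p = 0.0009) passed within group and letter, 2 of 45. *Clock*, *Dbp* and *Per3* were in none of the 14 pairs.

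**Figure D4:**
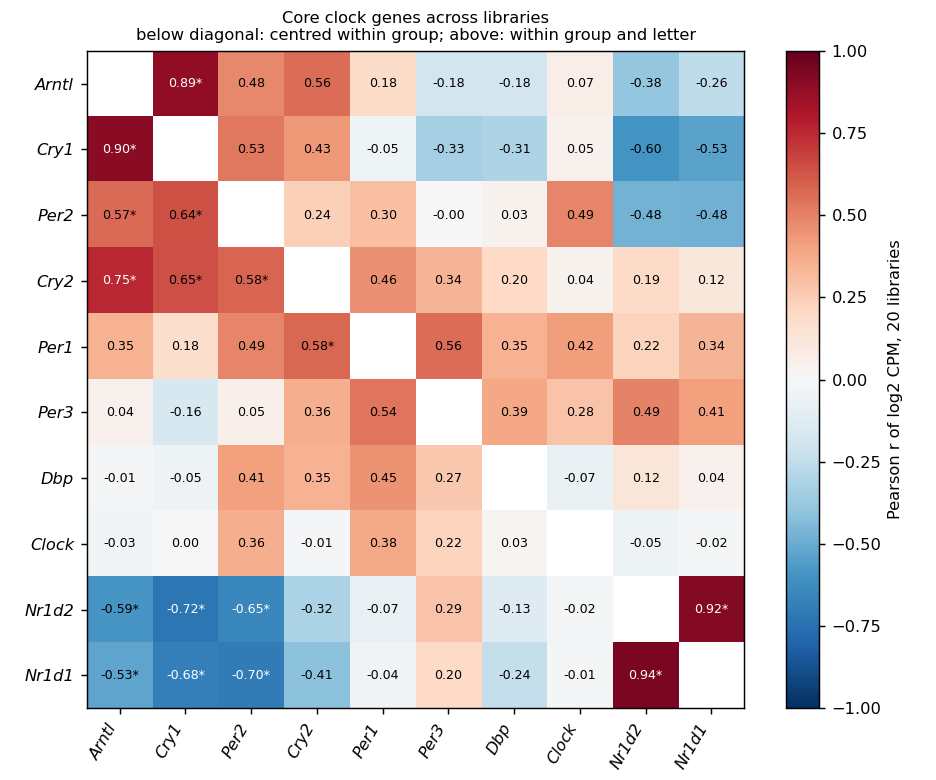
Pearson's r of log2 CPM for each pair of core clock genes over 20 libraries, centred within group below the diagonal and within group and letter above it, with a star at an adjusted p under 0.05. Red is positive and blue is negative. Of the 45 pairs 14 carry a star below the diagonal and 2 above it.

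Outside the core, the genes most like *Cry2* across libraries were sought among 13515 genes with a mean of at least 1 CPM, by Pearson's r centred within group, as a description over 20 libraries. Among the highest were *Map3k9* (r = 0.95), *Txnip* (0.92), *Zmiz1* (0.90) and *Sin3a* (0.90), and the lowest were *Puf60* (-0.91), *Bpnt1* (-0.88), *Nol11* (-0.88), *Nbn* (-0.88) and *Usp5* (-0.87). Of these genes, *Txnip*, which encodes a regulator of thioredoxin and glucose uptake, was lower in Str (log2 fold change -0.31, edgeR adjusted p = 0.025), and the others did not pass. The genes most like *Nr1d1*, the member with the largest log2 fold change above 0, were *Nr1d2* (0.94), *Acin1* (0.87), *Tbl1x* (0.84), *Klf9* (0.83) and *Eif5* (0.82). The lowest were *Rspry1* (-0.90), *B4gat1* (-0.84), *Pygo2* (-0.80), *Kctd21* (-0.80) and *D11Wsu47e* (-0.80).

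Around the core, *Arntl2* rose and *Tef* fell in Str. Of 8 measured genes of the wider clock loops (paralogs, ROR receptors and other repressors) 1 was higher and 1 lower, which is 25%, against 16.7% of all genes, with a median log2 fold change of -0.04. *Arntl2*, the paralog of *Arntl*, ranged from 0.931 to 3.29 CPM in Str with a median of 1.84, and from 0.846 to 1.47 CPM in Con with a median of 1.005, and 8 of 10 Str libraries were above every Con library. It rose by a log2 fold change of 0.85 (SE 0.20, edgeR adjusted p = 0.0053). Its counts were low, at 19 to 70 per Str library and 20 to 36 per Con library. *Tef*, which encodes a D-box activator of the same family as DBP, ranged from 4.79 to 11.7 CPM in Str with a median of 9.34, and from 9.39 to 20.4 CPM in Con with a median of 12.2, and 8 of 10 Con libraries were above every Str library. It fell by 0.58 on the log2 scale (SE 0.16, edgeR adjusted p = 0.015), and was not called without the 4 libraries that held *Alb* (-0.52, adjusted p = 0.071). *Npas2* (0.28, adjusted p = 0.072) missed the threshold in edgeR, and passed with the letter as a covariate (adjusted p = 0.020).

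Among 16 measured modifiers of clock proteins, 1 was higher and 3 were lower, which is 25%, against 16.7% of all genes. Their median log2 fold change was -0.004. *Csnk2a1*, a catalytic subunit of casein kinase 2 that phosphorylates PER2 and ARNTL, separated the groups completely, with 160 to 182 CPM in Str, against 185 to 205 CPM in Con. It fell by 0.16 on the log2 scale (SE 0.03, edgeR adjusted p = 0.0010). *Prkaa1*, a catalytic subunit of AMPK, fell by 0.23 (adjusted p = 0.0056) and *Btrc*, a ubiquitin ligase subunit for PER proteins, by 0.14 (adjusted p = 0.038). *Gsk3b*, a kinase of several clock proteins, rose by 0.12 (adjusted p = 0.018). Without the 4 libraries that held *Alb* the calls of *Btrc* (-0.12, adjusted p = 0.17) and *Gsk3b* (0.11, adjusted p = 0.097) were lost, and *Btrc* was called in 8 of 20 fits that left out 1 library.

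Of the 13 rhythmic output genes, 1 was higher and 3 were lower, which is 30.8%, against 16.7% of all genes. Their median log2 fold change was -0.02. *Slc9a3*, the apical sodium and hydrogen exchanger, was at 280 ± 43.6 CPM in Str and 183 ± 26.5 CPM in Con (SD, n = 10 each), and rose by 0.62 on the log2 scale (SE 0.09, edgeR adjusted p = 0.00011). *Tsc22d3*, which encodes the glucocorticoid-induced protein GILZ, was at 88.3 ± 10.6 CPM in Str and 112 ± 12.6 CPM in Con (SD, n = 10 each), and fell by 0.34 (SE 0.07, edgeR adjusted p = 0.0020). *Abcb1a*, an efflux transporter of the apical membrane, fell by 0.45 (adjusted p = 0.0081). *Ppara*, a receptor for fatty acids, fell by 0.59 (adjusted p = 0.030), and was called in 13 of 20 fits that left out 1 library and not without the 4 libraries that held *Alb* (-0.58, adjusted p = 0.10).

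Of 13 measured inputs to the clock, 0 were higher and 1 was lower in edgeR, which is 7.69%, against 16.7% of all genes. At an unadjusted p under 0.05 there were 4, a share close to that of the table (4813 of 15876). *Sgk1*, a kinase induced by glucocorticoids, was at 210 ± 56.6 CPM in Str and 274 ± 47.6 CPM in Con (SD, n = 10 each), and fell by 0.38 (SE 0.13, edgeR adjusted p = 0.048). It was called in 8 of 20 fits that left out 1 library and not without the 4 libraries that held *Alb* (-0.45, adjusted p = 0.071). *Crem*, a cAMP-responsive regulator, was called higher by DESeq2 and limma-voom (0.27 in edgeR, adjusted p = 0.065), and *Zbtb16*, a repressor induced by glucocorticoids, by limma-voom (0.51 in edgeR, adjusted p = 0.080). The receptor gene *Nr3c1* had a log2 fold change of -0.12 (95% interval -0.24 to -0.004, edgeR adjusted p = 0.15).

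**Figure D5:**
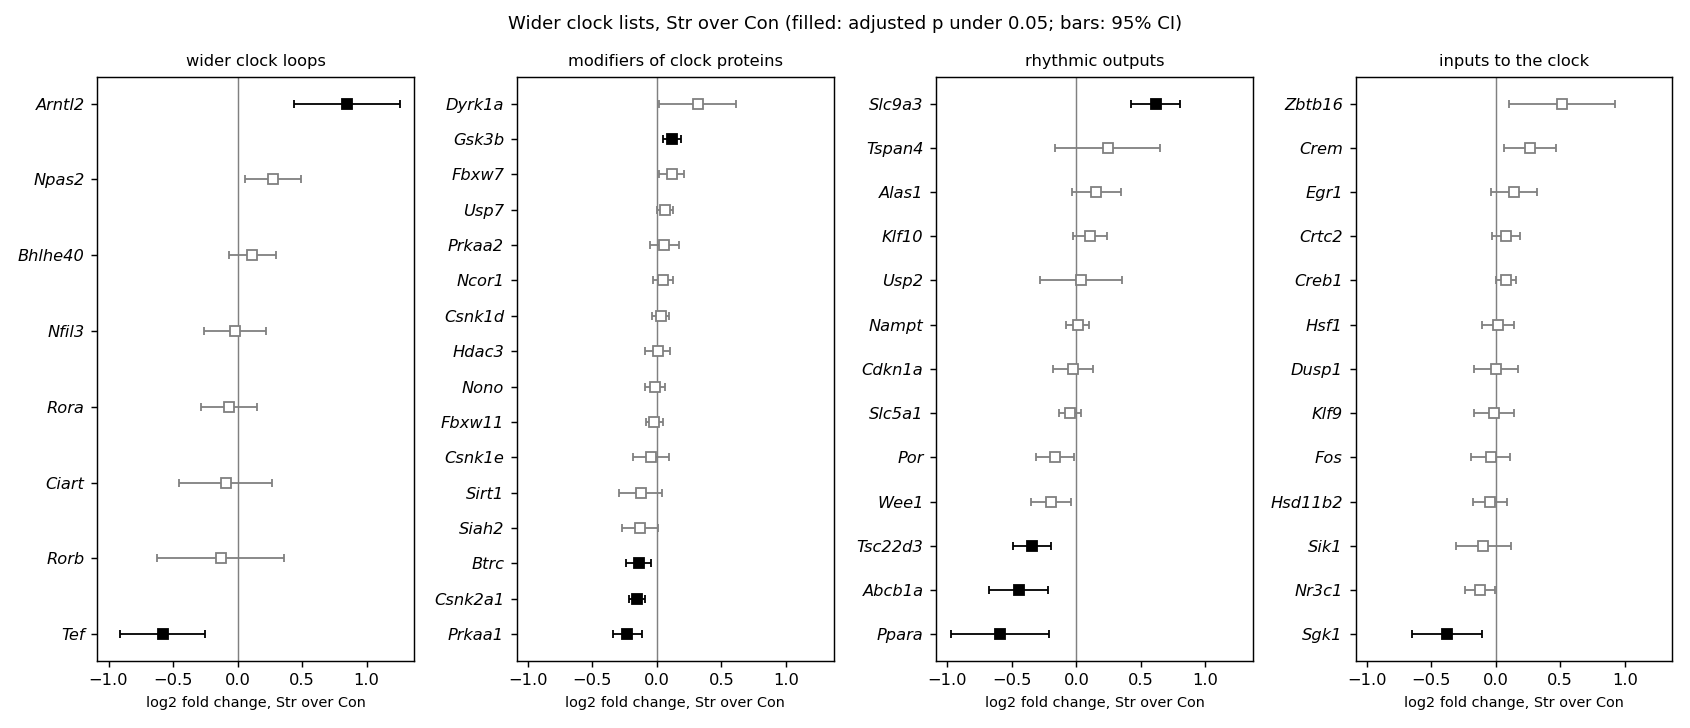
Log2 fold change, Str over Con, of the measured genes of the 4 wider clock lists, with 95% intervals over 20 libraries. Filled squares have an adjusted p under 0.05. *Arntl2* at 0.85 and *Slc9a3* at 0.62 lie farthest to the right, and *Tef* at -0.58 and *Ppara* at -0.59 farthest to the left.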

How the data were processed

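RNA was sequenced from IECs of 10 Str and 10 Con mice. The authors removed ribosomal RNA, prepared directional libraries, and used STAR (GRCm38.p4) and HTSeq. Their deposited table gives whole-number counts per gene, which were used unscaled. Its 20 further columns per sample hold values the authors normalised and were left out. A library's group is the first letter of its column name. Totals were 20034127 to 26141352 counts. The sources do not say which mice shared a cage.

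The main test was edgeR 4.0.16 in R 4.3.3 (quasi-likelihood, TMM, mean count of at least 4, Benjamini-Hochberg over 15876 genes). CPM used TMM-scaled library sizes, and log2 CPM a prior count of 2. Intervals are at 95% for the mean difference between groups, and are drawn from the spread between libraries. They do not span the levels of single libraries. Levels per kb used GENCODE exon lengths. Pairs were tested by permutation of libraries within group (numpy 2.4.6, Python 3.11.15). Alternatives were DESeq2 1.42.0, limma-voom (limma 3.58.1), scaling by RLE or by library sizes alone, removal of the low count filter or that of edgeR in its place, the letter as a covariate, a block by column name, the comparison without libraries whose *Alb* was over 10 times the median, either letter alone, and each library left out. The pairs and the letter comparison without the *Alb* libraries were added after seeing the data. Scripts were tested on simulated data.

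All 10 members were named, with the genes past the threshold in each wider list, up to 6, any gene a sentence needed, and the 5 genes most and the 5 least like *Cry2* and *Nr1d1*. Genes that share exon bases with a member were named after their values were seen. The members and lists were chosen with earlier results of these data known. Listed genes with no row used here were not analysed. A few genes that the lists or the naming rule hold are left out and not reported here.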

Additional observations from a re-analysis of the deposited data

Results flagged for a closer look

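Within each group of 10 libraries, 20 sets of values (10 genes in Str and in Con) were checked for a library apart from the rest by Dixon's criterion, which marks about 1 in 20 groups by chance. It marked 3. *Clock* was at 217 CPM in the Str library SL5, against 241 CPM or more in the other Str libraries. *Per3* was at 3.66 CPM in the same Str library, against 2.68 CPM or less in the others. *Per3* was at 4.75 CPM in the Con library CV4, against 3.53 CPM or less in the other Con libraries.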

How the results depend on the processing

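*Cry2* was lower in Str and called in 10 of 11 alternatives, all but the L libraries alone, and in 20 of 20 fits that left out 1 library. Of the core genes 1 was higher (*Clock*) under DESeq2, limma-voom, RLE factors, the letter covariate, the block and without the libraries that held *Alb*, and 0 to 1 with 1 library left out. The number lower was 2 with library sizes alone, the letter covariate and V libraries alone, 0 in L libraries alone, and 1 to 2 with 1 library left out. Over all genes, library sizes alone called 1949 lower, removal of the libraries that held *Alb* left 854 higher and 608 lower, V libraries alone 807 and 817, and L libraries alone 9 and 2. With 1 library left out these counts were 1151 to 1567 higher and 902 to 1605 lower. Some of these fits used fewer libraries, and the cause of the shifts was not tested. Signs turned for *Per2* (0.082) and *Dbp* (0.13) in V libraries alone and for *Nr1d2* (-0.037) under the block. Of 14 pairs, 2 passed when centred within group and letter, and 9 without the libraries that held *Alb*. A replicate block by column name used 8 names (16 libraries) and called 1 core gene higher (*Clock*) and 3 lower (*Arntl*, *Per3*, *Cry2*). Same-named libraries deviated with r of 0.02 to 0.44, over 0.1 in 4 of 8. Libraries of unlike name were not compared, so these values cannot settle whether the names pair the mice. Depth limits *Dbp* and *Per3*, with 30 to 106 counts per library, and *Arntl2*, with 19 to 70 in Str and 20 to 36 in Con.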
